A study of Mus musculus with 6 samples.

Results

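The nuclear genes for the subunits of respiratory complexes II, III and IV and of ATP synthase (complex V) were followed in liver RNA of mice fed polyethylene microplastic (PE-MP). Members were the rows of the count table whose symbol is Sdha, Sdhb, Sdhc, Sdhd or Cyc1 or starts with Uqcr, Cox4 to Cox8 or Atp5, without pseudogene symbols that hold "-ps". The rule took 49 of 56674 rows, 4 for complex II, 9 for complex III, 19 for complex IV and 17 for complex V, on 18 chromosomes. The groups were male C57BL/6 mice given chow with PE-MP and male C57BL/6 mice given normal chow, both reared for 71 weeks, with 3 liver libraries per chow made from poly(A)-selected RNA. The labels give neither the dose or particle size of PE-MP nor which library came from which animal, and the spread that p-values rest on here is that of the libraries, part or all of which may be technical.

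Complex II oxidises succinate and passes its electrons to ubiquinone. Complex III moves them on to cytochrome c and complex IV moves them from there to oxygen, and complex V uses the proton gradient to make ATP. Complex II is built wholly from nuclear genes, while complexes III, IV and V join nuclear subunits to a few that mitochondrial DNA encodes. Hepatocytes are rich in mitochondria, and the nuclear subunit genes are known as a set that respiratory factors such as NRF1 and the ETS factor GABP control together.

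Total counts ranged from 75176645 to 91898953 in the PE-MP chow libraries and from 68357478 to 112566641 in the normal chow libraries. The 13 mitochondrially encoded mRNAs took 8.63% to 9.19% of counts under PE-MP chow and 14.2% to 15.1% under normal chow, and the 18S row Rn18s-rs5 took 0.334% to 11.2% over all libraries, with its highest share in normal chow library 2. Levels below are CPM, the counts of a gene relative to the library's total, after scaling by TMM factors, which set the bulk of genes to no change, and 3 values in a row stand for libraries 1, 2 and 3. The scaling matters for direction. With total counts in its place the median log2 fold change of all 18043 tested genes was 0.32, against 0.018 with TMM factors. Changes are given relative to the bulk of genes in that sense.

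Nearly all subunit genes had lower levels under PE-MP chow, and none passed the threshold over all genes. Of 49 members, 45 passed the filter on low counts. Their log2 fold changes (PE-MP chow over normal chow) ran from -1.12 to 0.15 with a median of -0.42, and 44 of 45 were negative, against 48.3% of all tested genes (51.7% were positive, beside 1 member). With total counts 33 of 45 were negative, against 23.6% of all genes, and the median lay 0.44 below that of all genes under either scaling. By edgeR's quasi-likelihood test with Benjamini-Hochberg adjustment over all tested genes, 0 members passed an adjusted p of 0.05 in the lower direction, where 0% of all genes did, and 0 in the higher direction, where 0.00554% did. At an unadjusted p under 0.05 there were 28 members lower, against 8.82% of all genes, and 0 higher, against 9.1%. The chows did not overlap for 29 members lower, against 11.8% of all genes, and for 0 higher, against 14.2%. With total counts 3 members had an unadjusted p under 0.05, all lower, against 2.18% of all genes. In CPM of total counts the chows did not overlap for 3 members, Cox6b1, Uqcr11 and Uqcrq, against 2.65% of all genes. In a bulk sample, fewer cells of a type and less RNA per cell cannot be told apart.

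**Figure D1:**
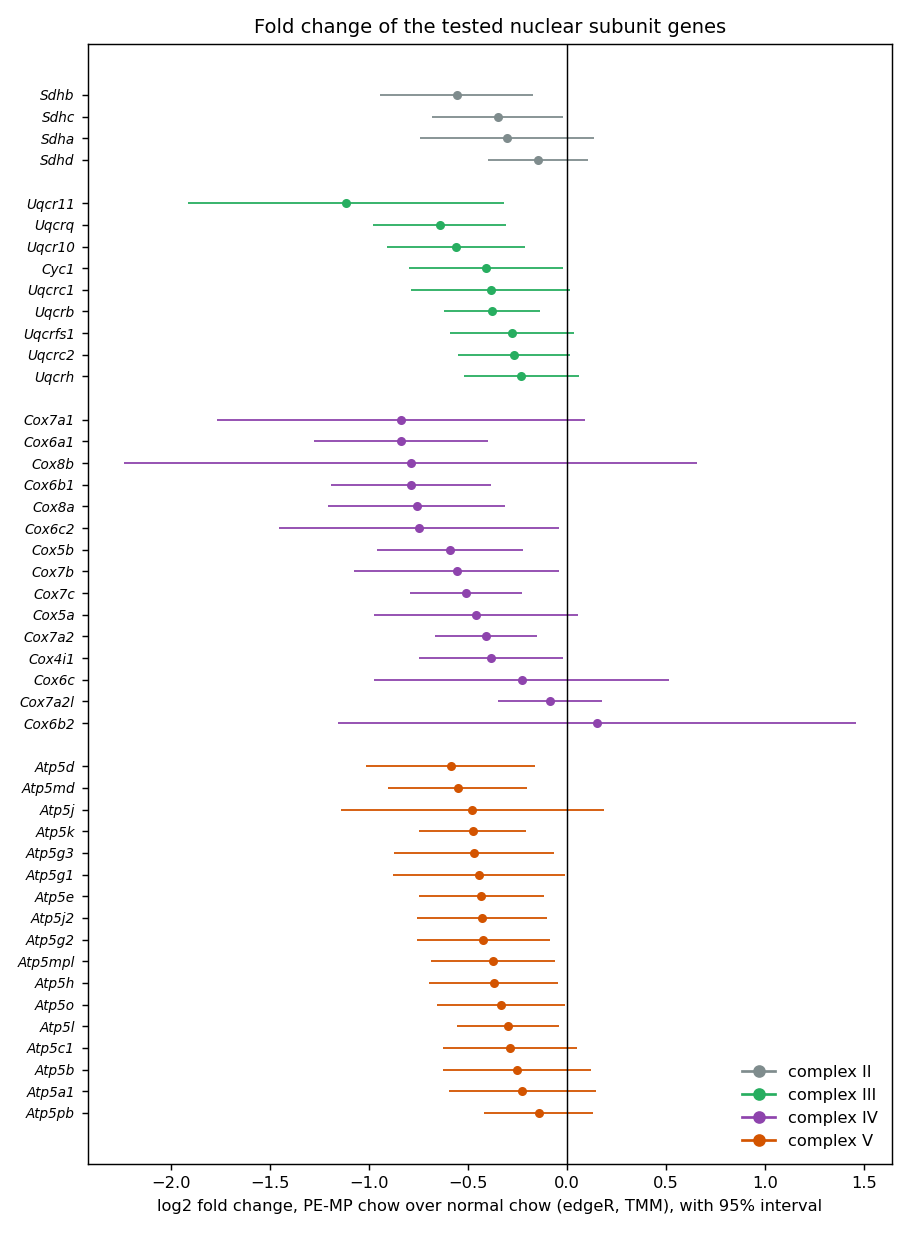
Log2 fold change of the 45 tested members, PE-MP chow over normal chow (x axis), with the edgeR 95% interval as a bar, grouped by complex (y axis). All points but that of Cox6b2 lie left of 0 with TMM scaling, and 28 intervals lie wholly below 0. With total counts 33 points would lie left of 0, against 23.6% of all genes.

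Other readings did call members. DESeq2 called 13 members lower and 0 higher at an adjusted p under 0.05, against 3.48% and 3.1% of genes with an adjusted p, and at an unadjusted p under 0.05 it had 29 members lower, against 10.2%. Those 13 were Sdhb in complex II, Uqcr10, Uqcr11, Uqcrb and Uqcrq in complex III, Cox5b, Cox6a1, Cox6b1, Cox7a2, Cox7c and Cox8a in complex IV, and Atp5k and Atp5md in complex V. Without normal chow library 2, edgeR called 16 members lower and 0 higher, against 3.27% and 2.38% of genes. These were Sdhb, Sdhc, Cyc1, Uqcrc1, Uqcr10, Uqcrq, Cox5b, Cox6a1, Cox6b1, Cox8a, Atp5d, Atp5e, Atp5g1, Atp5g3, Atp5h and Atp5mpl. The library left out was the lowest normal chow library for 32 of the 41 common tested members, so leaving it out widens the gap between chows. With any other library left out edgeR called 0 members lower, and limma-voom on all libraries called 0. For 34 of the 45 the whole edgeR 95% interval was between -1 and 1 on the log2 scale, against 49.7% of all genes.

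**Figure D2:**
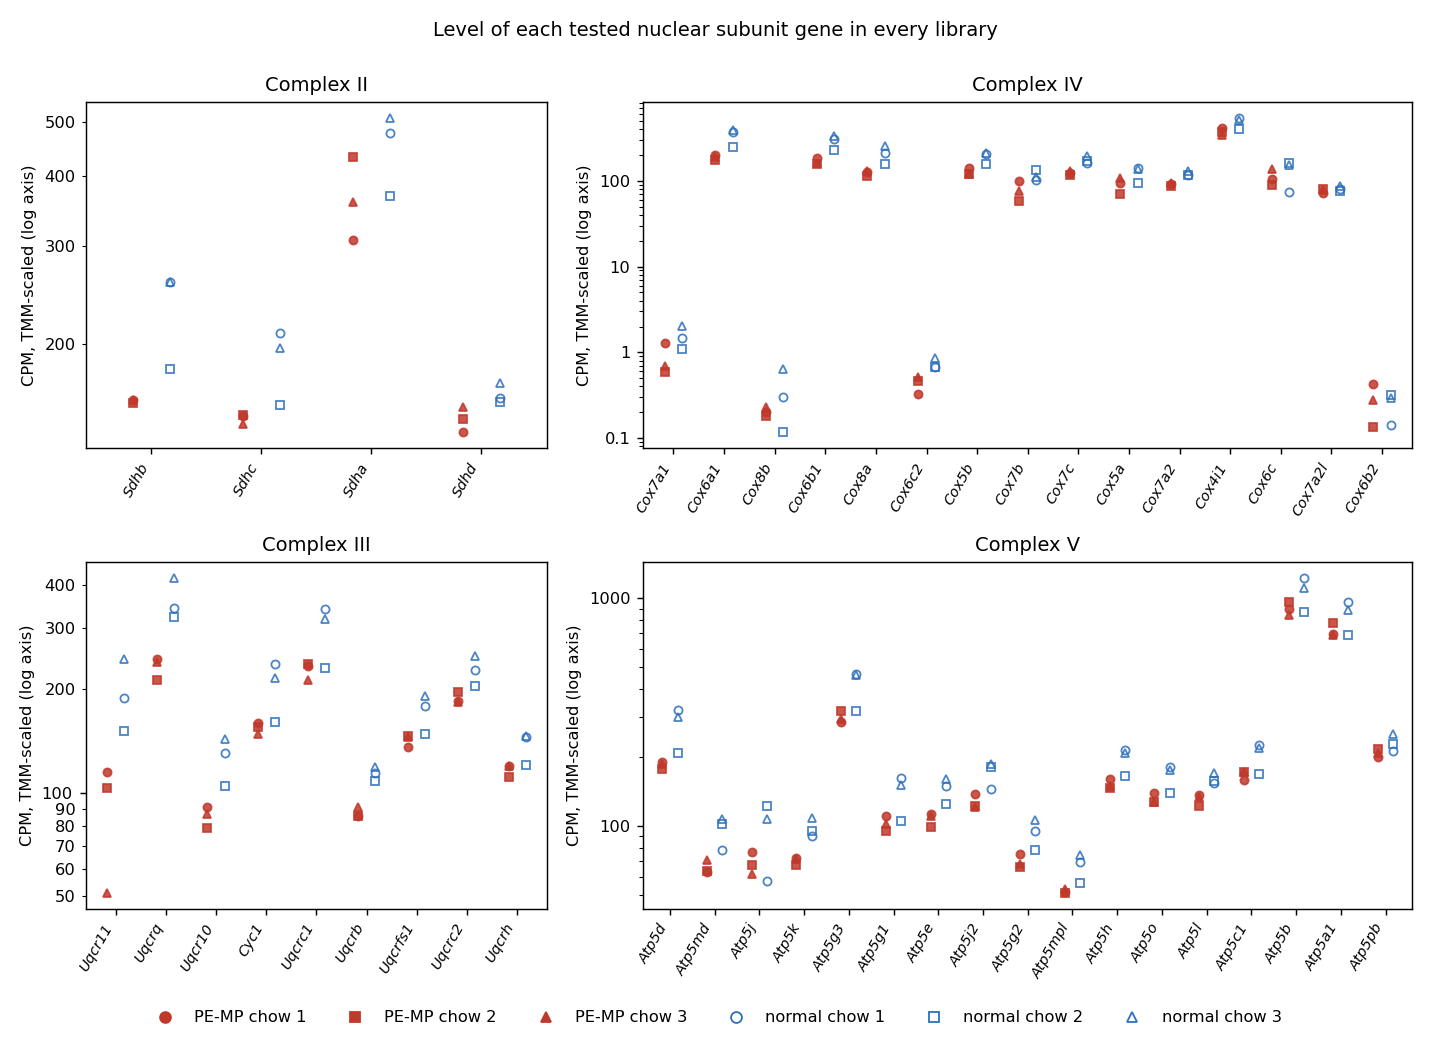
TMM-scaled CPM (log y axis) of each tested member (x axis, sorted by fold change within its complex) in every library, with PE-MP chow as filled red and normal chow as open blue symbols whose shape gives the library number. The PE-MP chow points lie close together for most genes, and normal chow library 2 (open squares) is often nearest to them.

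Complex II has 4 subunits, all nuclear, and all 4 genes were tested. Their median log2 fold change was -0.33. Sdhb, the iron-sulphur subunit that carries electrons away from the flavin, had 158, 157 and 159 CPM in the PE-MP chow libraries, against 259, 180.2 and 258 CPM in the normal chow libraries. Its PE-MP chow libraries spanned 1.94 CPM and lay below every normal chow library (log2 fold change -0.56 ± 0.16, as ± SE throughout; edgeR adjusted p = 0.178; DESeq2 adjusted p = 0.0478). Sdhc, which codes for a membrane anchor, had 149, 149 and 144 CPM in the PE-MP chow libraries, against 209, 155 and 197 CPM in the normal chow libraries. The groups did not overlap, though normal chow library 2 came within 6.51 CPM of the PE-MP chow libraries (log2 fold change -0.35 ± 0.14; edgeR adjusted p = 0.259). For Sdha, the flavoprotein that oxidises succinate, the values were 307, 433 and 359 CPM in the PE-MP chow libraries, against 479, 368 and 509.7 CPM in the normal chow libraries. These overlapped, and the log2 fold change of -0.30 ± 0.18 (edgeR adjusted p = 0.425) was -0.0038 with total counts. The other anchor gene, Sdhd, stood at 139, 147 and 154 CPM in the PE-MP chow libraries, against 159.5, 157 and 170.0 CPM in the normal chow libraries, with no overlap but a log2 fold change of -0.15 ± 0.11 that turned to 0.16 with total counts.

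In complex III, 9 of 9 genes were tested, with a median log2 fold change of -0.38. The 5 genes of small subunits had a median of -0.56, all without overlap between chows, against 11.8% of all genes lower. In CPM of total counts only Uqcrq and Uqcr11 of these stayed apart. The 4 genes of the redox and core subunits had values between -0.41 and -0.27. Among the small ones, Uqcrq, a subunit next to cytochrome b, had 244, 213 and 239.6 CPM in the PE-MP chow libraries, against 343, 323 and 419.9 CPM in the normal chow libraries. The highest PE-MP chow library lay 79.1 CPM below the lowest normal chow library (log2 fold change -0.64 ± 0.14; edgeR adjusted p = 0.135; DESeq2 adjusted p = 0.00532). Uqcr10 had 90.9, 78.9 and 87.0 CPM in the PE-MP chow libraries, against 130.4, 105 and 143 CPM in the normal chow libraries, again without overlap (log2 fold change -0.56 ± 0.15; edgeR adjusted p = 0.155). Uqcrb, at 85.5, 85.7 and 90.7 CPM in the PE-MP chow libraries, against 114, 108 and 118 CPM in the normal chow libraries, was the most even of these genes within both chows (log2 fold change -0.38 ± 0.10; edgeR adjusted p = 0.161).

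Uqcr11 had the lowest log2 fold change of all members, -1.12 ± 0.33 (edgeR adjusted p = 0.185). Its values were 115, 104 and 51.2 CPM in the PE-MP chow libraries, against 188, 151 and 245 CPM in the normal chow libraries. PE-MP chow library 3 stood far below the other PE-MP chow libraries, and with each library left out in turn the log2 fold change ran from -1.32 to -0.84. Uqcrh, the hinge protein that lies beside cytochrome c1, had 119.9, 111 and 120.0 CPM in the PE-MP chow libraries, against 145, 120.0 and 146 CPM in the normal chow libraries, parted by 0.049 CPM only (log2 fold change -0.23 ± 0.12, or 0.071 with total counts).

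The redox subunits are cytochrome c1 (Cyc1), which hands electrons to cytochrome c, and the Rieske iron-sulphur protein (Uqcrfs1). Cyc1 had 159, 155 and 148 CPM in the PE-MP chow libraries, against 237, 160.3 and 216 CPM in the normal chow libraries, with normal chow library 2 only 1.12 CPM above the nearest PE-MP chow library (log2 fold change -0.41 ± 0.16; edgeR adjusted p = 0.258). Uqcrfs1 had 135, 146 and 145 CPM in the PE-MP chow libraries, against 179, 148 and 192 CPM in the normal chow libraries, where the gap was 1.43 CPM (log2 fold change -0.28 ± 0.13, or 0.023 with total counts). The core subunits Uqcrc1 and Uqcrc2 resemble processing peptidases. Uqcrc1 had 233, 237 and 213 CPM in the PE-MP chow libraries, against 342, 230.4 and 319 CPM in the normal chow libraries, with overlap at normal chow library 2, and Uqcrc2 had 184, 196 and 183 CPM in the PE-MP chow libraries, against 227, 204 and 249 CPM in the normal chow libraries, without overlap. Their log2 fold changes were -0.38 ± 0.17 and -0.27 ± 0.12, and that of Uqcrc2 turned to 0.033 with total counts.

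The median of complex IV was -0.56 over 15 tested genes of 19, below those of the other complexes with TMM scaling but not once the trend on transcript length and GC content was removed (-0.35, against -0.41 for complex II). It held 6 of the 13 calls by DESeq2. Of the 15, 11 are the common forms found in most tissues, with a median of -0.51, and the rest are low-count rows. Cox6a1, a subunit that lies where the complexes of a dimer meet, had 199.7, 174 and 189 CPM in the PE-MP chow libraries, against 371, 249.7 and 386 CPM in the normal chow libraries. The gap between chows was 50.03 CPM, and the log2 fold change was -0.84 ± 0.19 (edgeR adjusted p = 0.135; DESeq2 adjusted p = 0.00364). Cox6b1, which faces the intermembrane space and links the complexes of a dimer, had 183, 155 and 161 CPM in the PE-MP chow libraries, against 307, 227 and 329 CPM in the normal chow libraries. These groups were also apart (log2 fold change -0.79 ± 0.17; edgeR adjusted p = 0.134; DESeq2 adjusted p = 0.00296). Cox8a, one of the smallest subunits, had 125, 115 and 128 CPM in the PE-MP chow libraries, against 212, 156 and 254 CPM in the normal chow libraries (log2 fold change -0.76 ± 0.19; edgeR adjusted p = 0.146). Cox5b, a matrix subunit that binds zinc, had 142, 119 and 119.6 CPM in the PE-MP chow libraries, against 203, 158 and 213 CPM in the normal chow libraries (log2 fold change -0.59 ± 0.15; edgeR adjusted p = 0.155). Neither gene's chows overlapped.

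Cox7c stood at 123, 117 and 128 CPM in the PE-MP chow libraries, against 159.7, 172 and 193 CPM in the normal chow libraries, and Cox7a2 at 90.6, 87.0 and 94.5 CPM in the PE-MP chow libraries, against 116, 115 and 130.3 CPM in the normal chow libraries. Both had narrow ranges within each chow and no overlap between chows, with log2 fold changes of -0.51 ± 0.12 and -0.41 ± 0.11 (edgeR adjusted p = 0.139 and 0.159). For Cox7b, the X-linked member, the PE-MP chow libraries were spread widely, at 99.3, 57.7 and 76.0 CPM in the PE-MP chow libraries, against 101, 133 and 109 CPM in the normal chow libraries (log2 fold change -0.56 ± 0.22; edgeR adjusted p = 0.252). Cox4i1, whose protein binds ATP and tunes the enzyme, had the highest level of the complex, 406, 371 and 343 CPM in the PE-MP chow libraries, against 544, 402 and 514 CPM in the normal chow libraries. There the chows overlapped through normal chow library 2 (log2 fold change -0.38 ± 0.15; edgeR adjusted p = 0.257). Cox5a, at 94.9, 70.4 and 107 CPM in the PE-MP chow libraries, against 142, 94.8 and 137 CPM in the normal chow libraries, overlapped as well (log2 fold change -0.46 ± 0.22).

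Of the remaining common members of complex IV, 1 lay near no change and the other was undetermined. Cox7a2l, a factor linked to supercomplexes of complexes III and IV, had 70.9, 79.2 and 77.6 CPM in the PE-MP chow libraries, against 79.5, 75.5 and 86.8 CPM in the normal chow libraries. Its log2 fold change was -0.086 ± 0.11, with a 95% interval from -0.35 to 0.18, and 0.22 with total counts. Cox6c was uneven within both chows, at 104, 89.6 and 136 CPM in the PE-MP chow libraries, against 74.5, 160.3 and 151 CPM in the normal chow libraries. Normal chow library 1 held the lowest value and normal chow library 2 the highest, and the log2 fold change of -0.23 ± 0.31 (95% interval -0.97 to 0.52) turned to 0.091 with total counts, which leaves its direction unknown. Ndufa4, a complex IV subunit named after complex I that the rule does not take, had 196, 186 and 210.1 CPM in the PE-MP chow libraries, against 238, 254 and 286 CPM in the normal chow libraries (log2 fold change -0.40 ± 0.12; edgeR adjusted p = 0.187).

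Complex IV also has tissue forms, which stood far below their common partners in every library. The muscle and heart form Cox7a1 had 1.28, 0.586 and 0.688 CPM in the PE-MP chow libraries, against 1.46, 1.08 and 2.02 CPM in the normal chow libraries, about 1% of the counts of the Cox7a1 and Cox7a2 pair (0.928% ± 0.404 under PE-MP chow and 1.24% ± 0.299 under normal chow; SD, n = 3 each). The chows overlapped (log2 fold change -0.84 ± 0.39; edgeR adjusted p = 0.315). Cox8b, the muscle and brown fat form of Cox8a, had 0.201, 0.183 and 0.232 CPM in the PE-MP chow libraries, against 0.300, 0.116 and 0.632 CPM in the normal chow libraries, and Cox6b2, a testis form, had 0.423, 0.134 and 0.279 CPM in the PE-MP chow libraries, against 0.143, 0.316 and 0.296 CPM in the normal chow libraries. Their log2 fold changes of -0.79 ± 0.61 and 0.15 ± 0.55 had intervals of -2.24 to 0.66 and -1.16 to 1.46, which leave the direction of each unknown. Cox4i2, the lung form, had 5, 4 and 7 counts in the PE-MP chow libraries, against 6, 0 and 5 in the normal chow libraries, and Cox6a2, the muscle form, had 4, 0 and 0 counts in the PE-MP chow libraries, against 0, 3 and 0 in the normal chow libraries. Cox7b2 and Cox8c, testis forms, had 0 counts in all 6 libraries, which allows up to 3 counts per library, or 0.0279 to 0.0499 CPM, for counting error only. These 4 genes did not pass the filter and were not tested.

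Cox6c2 is another tested row of complex IV. GENCODE M21 annotates it on chromosome 12 as a processed pseudogene, a copy of an mRNA put back into the genome. Its 231 bases matched the coding part of Cox6c, on chromosome 15, at 224 positions, with an unbroken match of 145 bases. The pair is printed to show how little separates them for a read counter, with the 7 bases that differ in capitals (GENCODE M21 transcripts, sense strand):
Cox6c2: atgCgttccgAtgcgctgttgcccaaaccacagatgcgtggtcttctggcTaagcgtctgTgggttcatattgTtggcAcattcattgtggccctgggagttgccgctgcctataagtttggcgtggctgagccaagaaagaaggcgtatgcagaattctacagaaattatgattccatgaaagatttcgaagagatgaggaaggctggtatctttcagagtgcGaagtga
Cox6c: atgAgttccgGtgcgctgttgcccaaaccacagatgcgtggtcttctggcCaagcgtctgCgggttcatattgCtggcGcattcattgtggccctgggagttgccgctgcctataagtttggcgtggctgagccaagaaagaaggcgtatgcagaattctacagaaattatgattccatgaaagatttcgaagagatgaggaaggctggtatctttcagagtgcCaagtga
Cox6c2 had 0.328, 0.464 and 0.521 CPM in the PE-MP chow libraries, against 0.671, 0.682 and 0.849 CPM in the normal chow libraries (log2 fold change -0.75 ± 0.30; edgeR adjusted p = 0.257), and its counts were 0.404% ± 0.102 of the pair under PE-MP chow and 0.626% ± 0.241 under normal chow (SD, n = 3 each). Whether these reads came from Cox6c2 or from Cox6c was not tested. Other members have processed copies too, so their counts are uncertain to the extent that the counting split reads between copies.

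In complex V all 17 genes were tested, all had negative values with TMM scaling (12 with total counts), and the median log2 fold change was -0.42. The F1 part, which makes ATP, had a median of -0.29, and its large catalytic subunits were closest to no change. Atp5b (beta), which holds the catalytic sites, had the highest level of all members, 893, 962 and 839 CPM in the PE-MP chow libraries, against 1225, 871 and 1112 CPM in the normal chow libraries. Atp5a1 (alpha), its partner in the ring, had 696, 778 and 692 CPM in the PE-MP chow libraries, against 958, 686 and 886 CPM in the normal chow libraries. In both genes the values of normal chow library 2 lay inside or below the range of the PE-MP chow libraries, and log2 fold changes of -0.25 ± 0.16 and -0.22 ± 0.16 turned to 0.045 and 0.073 with total counts. Atp5c1 (gamma), the rotating shaft, had 159, 173 and 172 CPM in the PE-MP chow libraries, against 226, 169 and 221 CPM in the normal chow libraries, with overlap (log2 fold change -0.29 ± 0.14, and 0.013 with total counts). The shaft's smaller parts were lower. Atp5d (delta) had 191, 178 and 186 CPM in the PE-MP chow libraries, against 324, 208 and 302 CPM in the normal chow libraries (log2 fold change -0.59 ± 0.18; edgeR adjusted p = 0.187), and Atp5e (epsilon) had 113, 99.4 and 110.3 CPM in the PE-MP chow libraries, against 150.3, 125 and 160.0 CPM in the normal chow libraries (log2 fold change -0.43 ± 0.13; edgeR adjusted p = 0.187). Neither overlapped between chows.

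The c ring, which turns as protons pass, is coded by 3 genes whose mature protein is the same. Atp5g3 supplied most of the transcripts, 63.5% ± 2.93 of their counts under PE-MP chow and 64.0% ± 0.431 under normal chow. Atp5g1 supplied 21.7% ± 1.88 under PE-MP chow and 21.5% ± 0.892 under normal chow, and Atp5g2 supplied 14.8% ± 1.07 under PE-MP chow and 14.5% ± 1.29 under normal chow (SD, n = 3 each). These shares differed between chows by less than their spread. All 3 genes had lower levels under PE-MP chow. Atp5g3 had 286, 318 and 296 CPM in the PE-MP chow libraries, against 466, 320.3 and 460.3 CPM in the normal chow libraries (log2 fold change -0.47 ± 0.17; edgeR adjusted p = 0.229), and Atp5g2 had 75.1, 66.1 and 67.9 CPM in the PE-MP chow libraries, against 94.8, 78.8 and 107 CPM in the normal chow libraries (log2 fold change -0.42 ± 0.14; edgeR adjusted p = 0.208). Atp5g1 had 111, 94.7 and 102 CPM in the PE-MP chow libraries, against 163, 105 and 152 CPM in the normal chow libraries, where normal chow library 2 lay within the range of the PE-MP chow libraries (log2 fold change -0.45 ± 0.18; edgeR adjusted p = 0.270).

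The 5 small membrane subunits lie in the membrane part of ATP synthase and help it form dimers. Their chows did not overlap in any case, against 11.8% of all genes lower, with log2 fold changes from -0.55 to -0.30. In CPM of total counts the chows overlapped for each of them. Atp5k (subunit e) had 72.1, 67.4 and 71.7 CPM in the PE-MP chow libraries, against 90.6, 94.8 and 109 CPM in the normal chow libraries (log2 fold change -0.48 ± 0.11; edgeR adjusted p = 0.141; DESeq2 adjusted p = 0.0174). Atp5md had 62.6, 63.6 and 70.7 CPM in the PE-MP chow libraries, against 78.7, 102 and 108 CPM in the normal chow libraries (log2 fold change -0.55 ± 0.15; edgeR adjusted p = 0.161; DESeq2 adjusted p = 0.0464). Atp5mpl stood at 51.2, 50.9 and 52.8 CPM in the PE-MP chow libraries, against 69.5, 56.5 and 74.5 CPM in the normal chow libraries, where the PE-MP chow libraries spanned 1.9 CPM (log2 fold change -0.37 ± 0.13). Atp5j2 (subunit f) had 139, 123 and 121 CPM in the PE-MP chow libraries, against 146, 182 and 187 CPM in the normal chow libraries (log2 fold change -0.43 ± 0.14). Atp5l (subunit g) had 137, 123 and 134 CPM in the PE-MP chow libraries, against 154, 157 and 171 CPM in the normal chow libraries (log2 fold change -0.30 ± 0.11, and 0.0073 with total counts).

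The peripheral stalk, which holds F1 still against the ring, was mixed. Atp5h (subunit d) had 161, 146 and 149 CPM in the PE-MP chow libraries, against 216, 166 and 209 CPM in the normal chow libraries without overlap (log2 fold change -0.37 ± 0.14; edgeR adjusted p = 0.234). Atp5o, the subunit that confers oligomycin sensitivity, had 140.1, 127 and 127 CPM in the PE-MP chow libraries, against 181, 139.7 and 175 CPM in the normal chow libraries, with an overlap of a fraction of a CPM (log2 fold change -0.33 ± 0.14). Atp5pb (subunit b) was near no change, at 201, 218 and 209.6 CPM in the PE-MP chow libraries, against 212, 229 and 252 CPM in the normal chow libraries (log2 fold change -0.14 ± 0.12; 95% interval -0.42 to 0.13), and turned to 0.16 with total counts. Atp5j (coupling factor 6) had 76.7, 67.7 and 61.3 CPM in the PE-MP chow libraries, against 57.1, 122 and 107 CPM in the normal chow libraries. Normal chow library 1 was the lowest of the 6 libraries and normal chow library 2 the highest (log2 fold change -0.48 ± 0.28; edgeR adjusted p = 0.409). Atpif1, which codes for the inhibitor of ATP synthase and lies outside the rule, was uneven, at 2.86, 5.72 and 1.87 CPM in the PE-MP chow libraries, against 2.60, 9.32 and 11.4 CPM in the normal chow libraries (log2 fold change -1.16 ± 0.63; edgeR adjusted p = 0.386).

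Levels of different genes were set side by side per kilobase of transcript for the 35 common tested members whose main transcripts agree in length to within 1.5 times. Cox4i1 stood highest, at 488 CPM per kilobase under PE-MP chow and 637 under normal chow, followed under normal chow by Cox6a1 at 329 CPM per kilobase under PE-MP chow and 588 under normal chow, Atp5g3 at 415 CPM per kilobase under PE-MP chow and 575 under normal chow and Atp5b at 469 CPM per kilobase under PE-MP chow and 558 under normal chow. Under PE-MP chow Cox6a1 stood below both Atp5g3 and Atp5b. The lowest were Sdhc at 46.4 CPM per kilobase under PE-MP chow and 59.1 under normal chow and Cox7a2l at 70.6 CPM per kilobase under PE-MP chow and 74.9 under normal chow. Atp5a1, which enters the enzyme in the same number as Atp5b, had 292 CPM per kilobase under PE-MP chow and 341 under normal chow.

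The 6 mitochondrially encoded partners of complexes III, IV and V had log2 fold changes below the median of their nuclear subunits, -0.98 ± 0.16 for mt-Cytb (cytochrome b), -1.16 ± 0.13, -1.05 ± 0.12 and -1.09 ± 0.16 for mt-Co1, mt-Co2 and mt-Co3, and -1.02 ± 0.13 and -0.88 ± 0.15 for mt-Atp6 and mt-Atp8. None passed the edgeR threshold, and the lowest adjusted p was 0.0599, of mt-Co1. Without normal chow library 2 edgeR called all 6 lower (adjusted p from 0.0224 to 0.0392). DESeq2 also called all 6 lower (adjusted p from 4.57e-19 to 9.07e-05), and limma-voom called mt-Co1 and mt-Co2 (adjusted p = 0.0368 for both), against 0.0499% of all genes. For complex IV the nuclear genes summed to 1641, 1438 and 1562 CPM in the PE-MP chow libraries, against 2312, 1945 and 2508 CPM in the normal chow libraries, a ratio of means of 0.686. The sum of mt-Co1, mt-Co2 and mt-Co3, the catalytic core, was 31784, 30258 and 30601 CPM in the PE-MP chow libraries, against 69986, 62881 and 70853 CPM in the normal chow libraries. Nuclear CPM per mitochondrial CPM was therefore 0.0501 ± 0.00223 under PE-MP chow and 0.0331 ± 0.00224 under normal chow (SD, n = 3 each), with no overlap. For complex V the nuclear sum averaged 3561 ± 95.8 CPM under PE-MP chow and 4472 ± 571 CPM under normal chow. Set against mt-Atp6 and mt-Atp8, the proton channel and its small partner, this gave 0.365 ± 0.0140 under PE-MP chow and 0.244 ± 0.0557 under normal chow. For complex III the nuclear sum averaged 1324 ± 44.7 CPM under PE-MP chow and 1834 ± 257 CPM under normal chow. Per CPM of mt-Cytb this was 0.131 ± 0.00494 under PE-MP chow and 0.0947 ± 0.0253 under normal chow. A ratio within a library does not depend on the scaling between libraries.

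**Figure D3:**
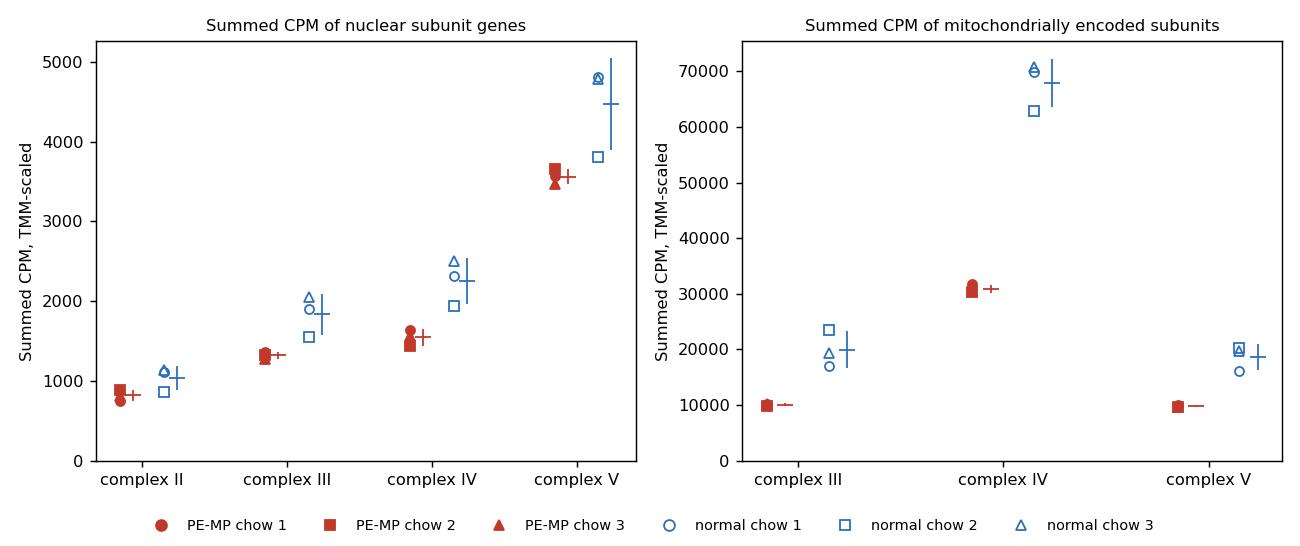
Summed TMM-scaled CPM of the nuclear members (left) and of the mitochondrially encoded subunits (right) of each complex in every library, with the mean and SD of each chow (n = 3) as a bar beside the points. The mitochondrially encoded sums of the chows lie far apart, while the nuclear sums of complex II (752 to 886 CPM under PE-MP chow, 861 to 1135 CPM under normal chow) overlap, and as shares of total counts the nuclear sums of all 4 complexes overlap.

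As a share of total counts, with no scaling factor, none of the nuclear sums parted the chows. Complex II took 0.0806%, 0.0965% and 0.0954% of counts in the PE-MP chow libraries, against 0.102%, 0.0757% and 0.102% in the normal chow libraries. Complex IV took 0.176%, 0.157% and 0.183% under PE-MP chow, against 0.213%, 0.171% and 0.226% under normal chow. Shares of complex III were 0.145% to 0.150% under PE-MP chow and 0.136% to 0.184% under normal chow, and those of complex V were 0.382% to 0.405% under PE-MP chow and 0.335% to 0.444% under normal chow. In each complex normal chow library 2 was the lowest or within the range of the PE-MP chow libraries.

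Normal chow library 2 was the nearest to the PE-MP chow libraries for many members. Among the 41 common tested members it was the lowest normal chow library for 32, while normal chow library 3 was the highest for 24. Over tested members the median deviation from a gene's mean over all libraries was between -0.083 and 0.024 on the log2 scale in that library, by complex. It was between 0.15 and 0.39 in the other normal chow libraries and between -0.35 and -0.11 in the PE-MP chow libraries. Without normal chow library 2 the unadjusted edgeR p was under 0.05 for 38 members lower, against 13.7% of genes, and the chows did not overlap for 41 of 45, against 24.4% of genes. Without normal chow library 3 it was under 0.05 for 14 members, against 5.42% of genes, and without PE-MP chow library 2 for 16, against 5.64%. Normal chow library 2 was also the library with 11.2% of counts on the 18S row, and the part of this in its position was not tested. Within a chow, the coefficient of variation of the common members had a median of 5.78% under PE-MP chow and 15.3% under normal chow. It was smaller under PE-MP chow for 36 of 41. The same was not computed for all genes, so whether this is particular to the members was not tested.

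**Figure D4:**
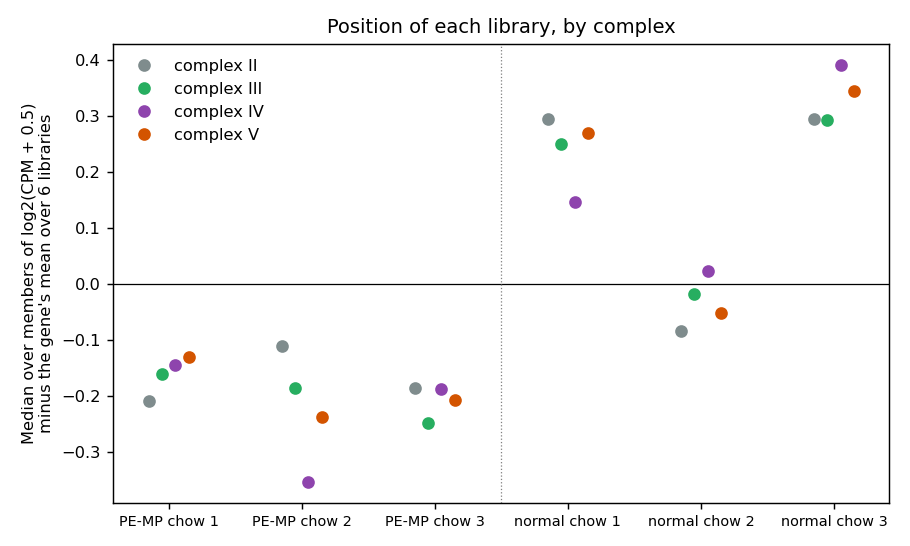
For each library (x axis) and complex (colour), the median over tested members of the log2(CPM + 0.5) value minus the gene's mean over the 6 libraries (y axis; TMM-scaled). PE-MP chow libraries lie below 0, normal chow libraries 1 and 3 above it, and normal chow library 2 near it. With total counts 33 of 45 members, not 44, were lower under PE-MP chow, against 23.6% of all genes.

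Other genes of the pathway gave the following counts, with 0 genes past the edgeR threshold in either direction. The lists came from textbook knowledge and were chosen with earlier results of these data known. Of the 36 tested nuclear subunits of complex I, 35 were negative, against 48.3% of all genes, the median was -0.48 on the log2 scale, and 30 had an unadjusted p under 0.05, all lower, beside 28 of 45 for complexes II to V and 8.82% of all genes lower. Among them Ndufa5 had a log2 fold change of -0.61 ± 0.11, Ndufc2 -0.53 ± 0.11 and Ndufs8 -0.75 ± 0.16. The TCA cycle list had a median of -0.11 over 13 genes, with 3 lower and 1 higher at an unadjusted p under 0.05, led by Idh3b (-0.45 ± 0.14), Suclg2 (-0.47 ± 0.15) and Idh3a (0.29 ± 0.12). The list of mitochondrial membrane proteins and carriers had a median of -0.14 over 13, with 2 lower, Phb (-0.55 ± 0.15) and Immt (-0.43 ± 0.18), and 0 higher. Both of these are inner membrane proteins, and no outer membrane (Vdac, Tomm) or carrier (Slc25a) gene of the list was among them. These TCA and membrane counts stand beside 8.82% lower and 9.1% higher for all genes. Whether these lists differ from the subunit genes was not tested.

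Assembly factors were read apart from subunits. For complex IV, 6 of 23 tested factors had an unadjusted p under 0.05, all lower, against 8.82% of all genes, with a median log2 fold change of -0.26. Pet100, needed for early assembly, had no overlap between chows (log2 fold change -0.94 ± 0.16; edgeR adjusted p = 0.124), while the copper chaperone Cox17 and the factor Coa3 had -0.37 ± 0.12 and -0.45 ± 0.15. For complex V, 3 of 5 factors had an unadjusted p under 0.05, all lower, and Fmc1 had 12.7, 13.1 and 13.1 CPM in the PE-MP chow libraries, against 25.5, 17.9 and 24.7 CPM in the normal chow libraries (log2 fold change -0.80 ± 0.16; edgeR adjusted p = 0.128). For complex III the figure was 2 of 7, Uqcc2 (log2 fold change -0.71 ± 0.16) and Uqcc3 (-0.36 ± 0.11), and for complex II it was 2 of 4, Sdhaf1 (-0.58 ± 0.17) and Sdhaf4 (-0.59 ± 0.17). Of the coenzyme Q synthesis genes 2 of 13 were lower at that level, near the share of 8.82% of all genes, Coq7 (-0.52 ± 0.15) and Coq8a (-0.51 ± 0.18). Cycs, the cytochrome c that shuttles between complexes III and IV, had 60.7, 59.1 and 55.4 CPM in the PE-MP chow libraries, against 60.1, 71.2 and 75.4 CPM in the normal chow libraries (log2 fold change -0.24 ± 0.12, or 0.064 with total counts).

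Most regulators of these genes had positive log2 fold changes. Of 11 tested, 0 had an unadjusted edgeR p under 0.05, against 8.82% of all genes lower and 9.1% higher. For so few genes that is near the share of all genes. Negative log2 fold changes were found in 3 of 11, against 48.3% of all genes, and the median was 0.24. The part of the regulators in the subunit genes' levels was not tested. Ppargc1a, which codes for the coactivator PGC-1alpha, had 8.99, 9.09 and 9.47 CPM in the PE-MP chow libraries, against 4.38, 9.07 and 7.23 CPM in the normal chow libraries (log2 fold change 0.41 ± 0.26). Gabpa, which codes for the DNA-binding part of GABP, had 33.5, 40.9 and 44.1 CPM in the PE-MP chow libraries, against 13.6, 41.1 and 30.1 CPM in the normal chow libraries (log2 fold change 0.48 ± 0.38). Nrf1 had 8.98, 2.46 and 6.48 CPM in the PE-MP chow libraries, against 6.28, 4.59 and 7.51 CPM in the normal chow libraries (log2 fold change -0.037 ± 0.46, or 0.26 with total counts), and Tfam, needed to copy and transcribe mitochondrial DNA, had 41.3, 45.0 and 45.1 CPM in the PE-MP chow libraries, against 39.0, 46.5 and 46.8 CPM in the normal chow libraries (log2 fold change -0.0098 ± 0.12, or 0.30 with total counts). In each of these 4 genes the chows overlapped. For 3 other regulators they did not, all higher under PE-MP chow, as for 14.2% of all genes. Pprc1, a relative of PGC-1alpha, had a log2 fold change of 0.41 ± 0.18 (edgeR unadjusted p = 0.0518; adjusted p = 0.283). Gabpb1, which codes for the activating part of GABP, had 0.29 ± 0.15 (edgeR unadjusted p = 0.088), and Esrra, a nuclear receptor, had 0.24 ± 0.13 (edgeR unadjusted p = 0.112).

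Sequences before the start sites were searched for the motifs of those regulators, in RefSeq promoter windows of build GRCm38.p6 that covered 36 of the 49 members with 39 windows. The window was the 250 bases before the start, and both strands were read. RefSeq and GENCODE M21 differ on starts, and in 20 of the 39 windows the last 15 or more bases lay in a GENCODE transcript of the gene. For Atp5j2, Atp5d and Atp5j a window lay wholly in such a transcript. The NRF1 core GCATGCGC was in 12.8% of member windows (5 of 39) and 2.26% of all windows. The ETS core CCGGAAG, which GABP can bind, was in 23.1% of member windows (9 of 39) and 6.91% of all windows. The YY1 letters AAGATGGC were in 2.56% (1 of 39) and 1.56%, and the CCAAT box, CCAAT, was in 53.8% (21 of 39) and 33.8%. The longer NRF1 palindrome, which is the core with GC before it, was in 7.69% (3 of 39) and 0.782%. All windows were taken whatever the level of their gene in these libraries or the base content of the window. Whether the shares differ from those of genes with like levels and base content was not tested. Shown here, per complex, is the member with the smallest edgeR p whose window held an NRF1 or ETS core, with Cox6a1 added because its window holds both, as that of Atp5l does. Capitals mark these cores on either strand, and a match is a description of letters, not a binding site:
Sdhb: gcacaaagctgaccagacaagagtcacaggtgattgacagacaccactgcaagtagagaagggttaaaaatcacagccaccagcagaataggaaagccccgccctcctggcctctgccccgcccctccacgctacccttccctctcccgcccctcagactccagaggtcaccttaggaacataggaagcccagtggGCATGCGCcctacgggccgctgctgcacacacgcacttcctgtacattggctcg
Uqcr11: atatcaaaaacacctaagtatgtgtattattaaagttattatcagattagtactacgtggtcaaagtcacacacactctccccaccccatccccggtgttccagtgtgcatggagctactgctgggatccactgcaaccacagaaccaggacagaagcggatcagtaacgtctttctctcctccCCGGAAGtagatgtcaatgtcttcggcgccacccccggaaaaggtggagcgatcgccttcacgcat
Cox6b1: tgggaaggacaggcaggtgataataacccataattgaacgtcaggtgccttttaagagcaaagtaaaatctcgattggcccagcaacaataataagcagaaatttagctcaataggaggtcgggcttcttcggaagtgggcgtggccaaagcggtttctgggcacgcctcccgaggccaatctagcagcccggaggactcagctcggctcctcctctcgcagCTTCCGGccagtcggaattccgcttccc
Cox6a1: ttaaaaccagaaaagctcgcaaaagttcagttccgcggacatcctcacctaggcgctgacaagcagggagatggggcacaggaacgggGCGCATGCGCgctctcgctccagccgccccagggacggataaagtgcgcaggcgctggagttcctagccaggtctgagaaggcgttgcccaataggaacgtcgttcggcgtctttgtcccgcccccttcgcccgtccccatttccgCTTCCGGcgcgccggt
Atp5k: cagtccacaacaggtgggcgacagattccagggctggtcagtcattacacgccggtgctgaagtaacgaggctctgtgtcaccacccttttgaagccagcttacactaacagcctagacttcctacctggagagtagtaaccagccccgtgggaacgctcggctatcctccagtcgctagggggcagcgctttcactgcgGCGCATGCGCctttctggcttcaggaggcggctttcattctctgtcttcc
The windows lie at chr4:140961021-140961270 on the plus strand for Sdhb and, on the minus strand, at chr10:80406822-80407071 for Uqcr11, chr7:30626115-30626364 for Cox6b1, chr5:115348959-115349208 for Cox6a1 and chr5:108434400-108434649 for Atp5k. The NRF1 match begins 54 bases before the start in Sdhb, 50 in Atp5k and 162 in Cox6a1, and the ETS match begins 16 bases before it in Cox6a1, 28 in Cox6b1 and 66 in Uqcr11. These distances are from the RefSeq start. In GENCODE M21 a transcript begins 68 bases earlier for Sdhb, 49 for Atp5k, 23 for Cox6a1 and 37 for Cox6b1, so the Sdhb match, the ETS matches of Cox6a1 and Cox6b1 and most of the Atp5k match lie in annotated transcript.

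Most members have short transcripts, and fold change went with length among them. The median transcript length in GENCODE M21 was 723 bases for the 45 tested members and 2533 for the 17372 tested genes with a length. Over the 45 members, the log2 fold change correlated with transcript length at Spearman's rho = 0.409 and with log2 length at Pearson's r = 0.385, given as a description of genes that share the same libraries. The longest transcripts, of Atp5g1 (4715 bases, though its main transcripts differ in length), Sdhc (3171) and Sdha (2900), had log2 fold changes of -0.45, -0.35 and -0.30. The 7 members below -0.7 had transcripts of 231 to 618 bases, and among them Cox6c2, Cox7a1 and Cox8b had low counts. Uqcrq, at 1521 bases, had -0.64, though its main transcripts run from 405 to 1521 bases. The trend on length and GC content over all genes was then removed, which was tried once the data had been seen. After this 42 of 45 members were negative, against 56% of all genes. Their median was then 0.25 below that of all genes, in place of 0.44 below. The medians were then -0.41 for complex II, -0.34 for complex III, -0.35 for complex IV and -0.24 for complex V, so complex II and not complex IV was the lowest. The part of transcript length in the lower levels was not tested further.

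**Figure D5:**
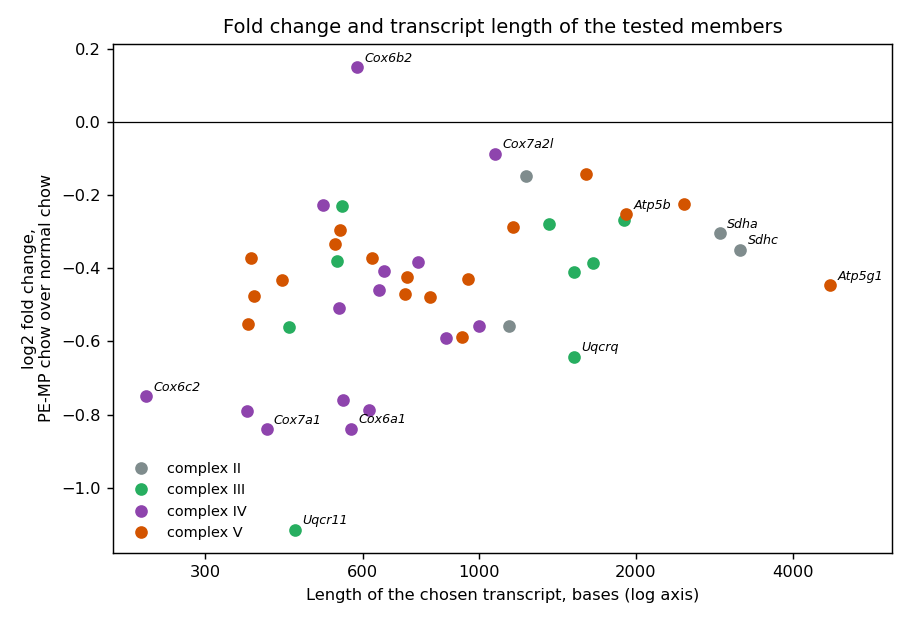
Log2 fold change, PE-MP chow over normal chow with TMM scaling (y axis), against the length of the annotated main transcript in bases (log x axis) for the 45 tested members, coloured by complex. The 7 genes below -0.7 have transcripts of 231 to 618 bases, and Cox6c2, Cox7a1 and Cox8b among them have low counts. The longest transcripts, 2900 to 4715 bases, lie between -0.45 and -0.30. With total counts 33 of the 45 points would lie below 0, against 23.6% of all genes.

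Markers of other cells were read in the same libraries. Hepatocyte markers summed to 79826 to 87298 CPM under PE-MP chow and 71604 to 87747 CPM under normal chow, most of it Alb. Only 1 of the 10 had a negative log2 fold change, against 48.3% of all genes, and their median was 0.20. The 8 spermatogenic markers were at 0 in all libraries, and 8 of 12 striated muscle markers were at 0, among them Ckm, with a summed level of 0.444 to 0.549 CPM under PE-MP chow and 0.457 to 0.716 CPM under normal chow. Adipocyte markers summed to 12.2 to 36.7 CPM under PE-MP chow and 37.3 to 159 CPM under normal chow, with Lep and Ucp1 at 0, and most of the sum was Cidea and Cidec, which fatty hepatocytes also express and whose chows overlapped. All 6 tested adipocyte markers had negative log2 fold changes, with a median of -2.24. Of these, 4 had an unadjusted edgeR p under 0.05, against 8.82% of all genes lower. The 2 adipocyte markers without overlap were lower under PE-MP chow, against 11.8% of all genes. Retn had 0, 0 and 0 counts in the PE-MP chow libraries, against 18, 11 and 35 in the normal chow libraries (edgeR adjusted p = 0.124; DESeq2 adjusted p = 0.000182). Cfd had 0.243, 1.31 and 1.43 CPM in the PE-MP chow libraries, against 9.07, 2.21 and 12.4 CPM in the normal chow libraries (log2 fold change -2.99 ± 0.87; edgeR adjusted p = 0.184; DESeq2 adjusted p = 0.00147). Kupffer cell markers, 10 of 10 with positive log2 fold changes against 51.7% of all genes, summed to 172 to 286 CPM under PE-MP chow and 131 to 174 CPM under normal chow. Liver endothelial markers, also 10 of 10 positive, summed to 165 to 214 CPM under PE-MP chow and 125 to 145 CPM under normal chow. Smooth muscle and pericyte markers, 5 of 7 tested negative, summed to 39.2 to 61.9 CPM under PE-MP chow and 49.7 to 78.8 CPM under normal chow. Nuclear retained RNAs summed to 389 to 700.3 CPM under PE-MP chow and 171 to 488 CPM under normal chow. Of the 5 tested, 0 had a negative log2 fold change, against 48.3% of all genes, and the median was 1.29. An unadjusted edgeR p under 0.05 was found for 1 of these 5, higher under PE-MP chow, against 9.1% of all genes. The part of these in the subunit genes' levels was not tested.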

How the data were processed

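Liver poly(A) RNA of 3 PE-MP chow and 3 normal chow libraries was analysed. Per the file headers the authors deposited gene counts, and the values are whole numbers whose totals differ between libraries, so they are not normalised. The submitters' processing notes name bcl2fastq and build GRCm39. What aligned and counted the reads, with which annotation and strand setting, is not given in the sources used here. The table of the whole series equals the single-library files (0 cells differed).

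Genes were tested with edgeR 4.0.16 (R 4.3.3), quasi-likelihood F test, TMM factors, robust dispersions, and 18043 genes left by filterByExpr at its defaults. P-values are two-sided with Benjamini-Hochberg adjustment over all of these and a threshold of 0.05. The 67 symbols on more than 1 row (939 rows) were kept apart. Alternatives used DESeq2 1.42.0 and limma-voom 3.58.1, other factors and filters, and left out libraries. The fitting step was tested on simulated counts. Members and lists were chosen with earlier results of these data known. Named were all members, every mitochondrially encoded partner and, of other lists, up to 3 members with the smallest p. The rule asked for per-library values of the 6 members with the smallest p in each complex, tissue forms and the c ring, and they are given for all members with a count. Ndufa4, Ppargc1a, Gabpa, Nrf1, Tfam, Pprc1, Gabpb1, Esrra, Cox20 and Ndufb1 are named outside this rule, chosen after their values were seen. Transcript length and GC came from GENCODE M21 (build GRCm38), for 96.3% of tested genes and 100% of tested members. The longest main transcript with a RefSeq match was taken, and no coordinate was moved between builds.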

Additional observations from a re-analysis of the deposited data

How the results depend on the processing

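The count of members lower at an adjusted p of 0.05 was 0 by edgeR with TMM factors and 13 with DESeq2. It stayed at 0 with RLE or upper-quartile factors, limma-voom, no or a stricter filter, the replicate block, the top genes left out, and an adjusted p of 0.1. No setting called a member higher. Over all genes edgeR called 0 lower and 1 higher. The counts lower and higher were 1 and 2 with RLE factors, 627 and 559 with DESeq2, 9 and 6 with limma-voom, 8 and 15 with no filter, 11 and 11 with the stricter filter, and 29 and 24 at an adjusted p of 0.1. With the replicate block 0 genes were higher, and with total counts 10 were. The cause was not tested. Leaving out each library in turn gave 0 to 623 genes lower, 1 to 452 higher and 0 to 16 members lower, all of the top values without normal chow library 2. The complex medians then ran from -0.45 to -0.26 (II), -0.54 to -0.29 (III), -0.63 to -0.43 (IV) and -0.48 to -0.33 (V).

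With total counts in place of TMM factors, chosen after seeing the data, the medians were -0.027 for complex II, -0.089 for III, -0.25 for IV and -0.12 for V, where the median of all genes was 0.32. At an unadjusted p under 0.05 there were then 3 members lower, against 2.18% of genes. After removal of the trend on length and GC they were -0.41 for complex II, -0.34 for III, -0.35 for IV and -0.24 for V, so that II lay below IV. Leaving out mitochondrial, 18S and pseudogene rows, also chosen after seeing the data, moved no median beyond its spread.

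The labels do not say whether replicate numbers pair the libraries. The correlations of same-numbered libraries' deviations from their chow means were 0.0496, 0.085 and 0.183, all weak and positive. Those of differently numbered libraries ran from -0.184 to 0.105, the highest for PE-MP chow library 1 and normal chow library 2. With the replicate block 20 members had an unadjusted p under 0.05, against 7.45% of genes, in place of 28, and 0 passed adjustment. Depth was not the limit for the common subunits, which had at least 3394 counts per library. Cox4i2, Cox6a2, Cox7b2 and Cox8c had few or 0 counts and were not tested. Counts were also low for the tested rows Cox6b2 (10 to 40 per library), Cox8b (7 to 64), Cox6c2 (31 to 86) and Cox7a1 (48 to 205).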

Other observations

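The 12 rows left out for a pseudogene symbol held 631, 767 and 900 counts in all in the PE-MP chow libraries, against 965, 542 and 1339 in the normal chow libraries, or 6.67 to 9.36 CPM under PE-MP chow and 9.02 to 13.8 CPM under normal chow. Of these, 5 passed the filter. Cox7c-ps1 had 0.603, 1.13 and 0.930 CPM in the PE-MP chow libraries, against 1.96, 1.38 and 1.76 CPM in the normal chow libraries (log2 fold change -0.94 ± 0.30), and Cox5b-ps had 2.84, 4.83 and 2.97 CPM in the PE-MP chow libraries, against 5.78, 3.59 and 5.87 CPM in the normal chow libraries (log2 fold change -0.52 ± 0.30). Both values resemble those of their parent genes in sign, and reads shared with the parent were not separated.

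Of other genes, chosen after their values were seen, the complex IV factor Cox20 had 2.35, 1.57 and 2.02 CPM in the PE-MP chow libraries, against 1.98, 2.08 and 11.1 CPM in the normal chow libraries, with normal chow library 3 far above the rest. Ndufb1 of complex I had 9.05, 14.3 and 35.2 CPM in the PE-MP chow libraries, against 45.3, 43.3 and 53.2 CPM in the normal chow libraries, with PE-MP chow library 3 far above the other PE-MP chow libraries.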
